A study of Mus musculus with 5 samples.

Results

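The 9 genes of Sox groups B1 (Sox1, Sox2, Sox3), C (Sox4, Sox11, Sox12) and E (Sox8, Sox9, Sox10) were followed in mouse libraries labelled NEC, for neuroepithelial cells. Such cells are the epithelial stem cells that line the neural tube before radial glia form. The genes were picked by name, with earlier results of these data known, as 9 of the 21801 genes with a deposited value. All 9 were found once each. RNA sequencing had been done on 5 libraries that the labels place in 1 group, replicates 1 to 5, described as neural progenitor cells. The sources used here give no strain, embryonic age, genotype or way of purification, and no treatment or second group is named. The labels do not say whether the 5 libraries came from separate animals, so every SD and p-value measures the spread between these libraries, which may be technical.

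Sox proteins are transcription factors that bind DNA through an HMG box, a domain shared with the sex-determining factor Sry, and members of 1 group have closely similar boxes and often overlapping roles. Group B1 factors mark neural stem and progenitor cells and help to keep them undifferentiated. Group C factors act in neuronal differentiation and in survival of progenitors of several tissues, and group E factors act in the neural crest, in cartilage and in the step from neural progenitors to glia.

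The boxes of the 9 genes are shown first, because they bear on whether reads of 1 member could be credited to another. Each line gives 60 bases of coding sequence from the start of the conserved N-terminal part of the box, taken from the longest GENCODE M21 transcript (mm10), 5′ to 3′ on the coding strand. Capitals mark bases that differ from Sox2, which is therefore in lower case throughout.
Sox2 (chr3:34650548-34650607, plus strand): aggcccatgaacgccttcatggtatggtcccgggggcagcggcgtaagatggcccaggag
Sox1 (chr8:12396517-12396576, plus strand): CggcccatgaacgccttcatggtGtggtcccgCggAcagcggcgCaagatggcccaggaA
Sox3 (chrX:60892936-60892995, minus strand): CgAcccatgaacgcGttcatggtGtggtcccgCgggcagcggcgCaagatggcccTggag
Sox4 (chr13:28952782-28952841, minus strand): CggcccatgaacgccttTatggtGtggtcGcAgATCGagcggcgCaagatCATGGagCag
Sox11 (chr12:27342199-27342258, minus strand): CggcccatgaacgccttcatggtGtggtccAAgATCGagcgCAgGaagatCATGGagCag
Sox12 (chr2:152397516-152397575, minus strand): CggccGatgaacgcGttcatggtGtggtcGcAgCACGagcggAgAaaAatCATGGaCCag
Sox8 (chr17:25570163-25570222, minus strand): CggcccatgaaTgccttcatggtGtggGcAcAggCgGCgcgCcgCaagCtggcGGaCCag
Sox9 (chr11:112782903-112782962, plus strand): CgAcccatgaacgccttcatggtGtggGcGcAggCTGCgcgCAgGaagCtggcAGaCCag
Sox10 (chr15:79163342-79163401, minus strand): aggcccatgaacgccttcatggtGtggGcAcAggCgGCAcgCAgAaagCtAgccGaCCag

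Within these 60 bases Sox1 differed from Sox2 at 6 and Sox3 at 7, the group C genes at 16 to 20 and the group E genes at 16 to 18. Over the whole box of 237 bases, the 9 pairs inside a group had 81.4% to 89.9% identical bases, and the 27 pairs from different groups 64.6% to 71.3%. The pairs of group B1 had the highest median, with 87.3% to 89.9%, although Sox4 and Sox11 of group C (88.6%) exceeded Sox2 and Sox3 (87.3%). The longest exact run shared by the transcripts of any pair, on either strand, was 48 bases, in Sox4 and Sox11, shorter than the 75-base reads. A read of full length therefore matched no second member without a mismatch, whichever of the 9 it came from.

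**Figure D1:**
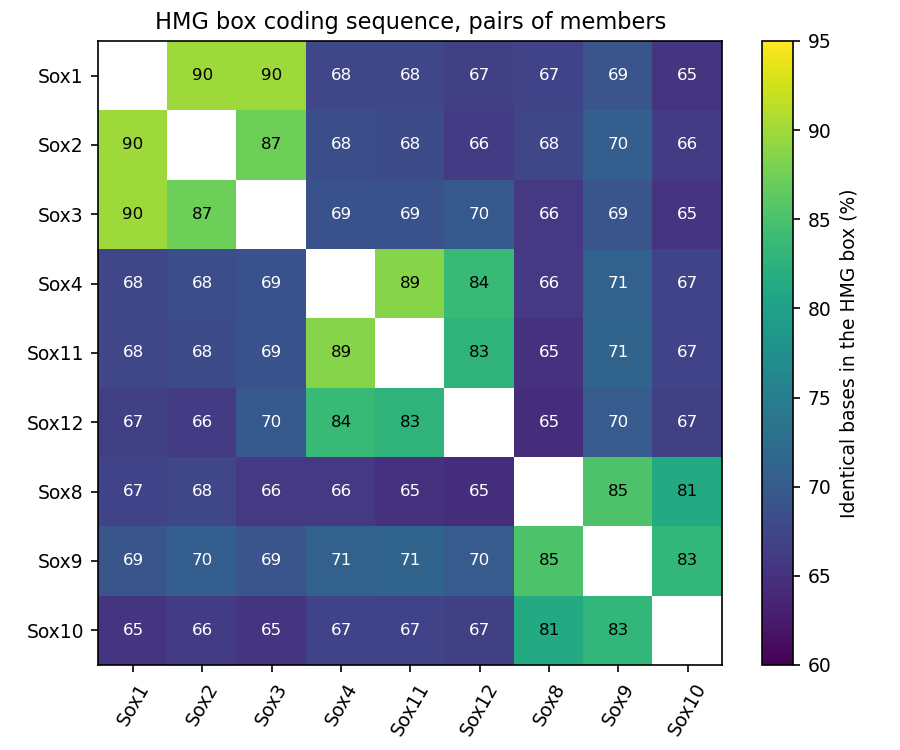
Share of identical bases (%) in the 237-base HMG box for each pair of the 9 members, ungapped, with the genes in the order of their groups on both axes. The 3 bright blocks are the pairs within groups B1, C and E, at 81.4% to 89.9%, and every other cell lies at or below 71.3%.

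All 9 members were above 0 in all 5 libraries, and they spanned about 2 orders of magnitude. Levels are in FPKM, fragments scaled to 1 kilobase of transcript and to 1000000 mapped reads. The scaling is meant to let genes of different length be compared, and it depends on transcript lengths that are not given. Each group had 1 dominant member: Sox2 held 70.6% to 75.1% of the summed FPKM of group B1, Sox4 73.1% to 78.0% of group C and Sox9 89.0% to 93.3% of group E. A gene was called above or below 1 FPKM by limma's moderated test on log2(FPKM + 1) over the 5 libraries, at a Benjamini-Hochberg adjusted p under 0.05 across all genes tested. By that test 7 of the 9 members were above and 2, Sox11 and Sox10, below, where 52.3% of the 19706 genes tested were above and 41.4% below. The median log2 difference from the level was 0.65 for the members and 0.45 for all genes tested.

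**Figure D2:**
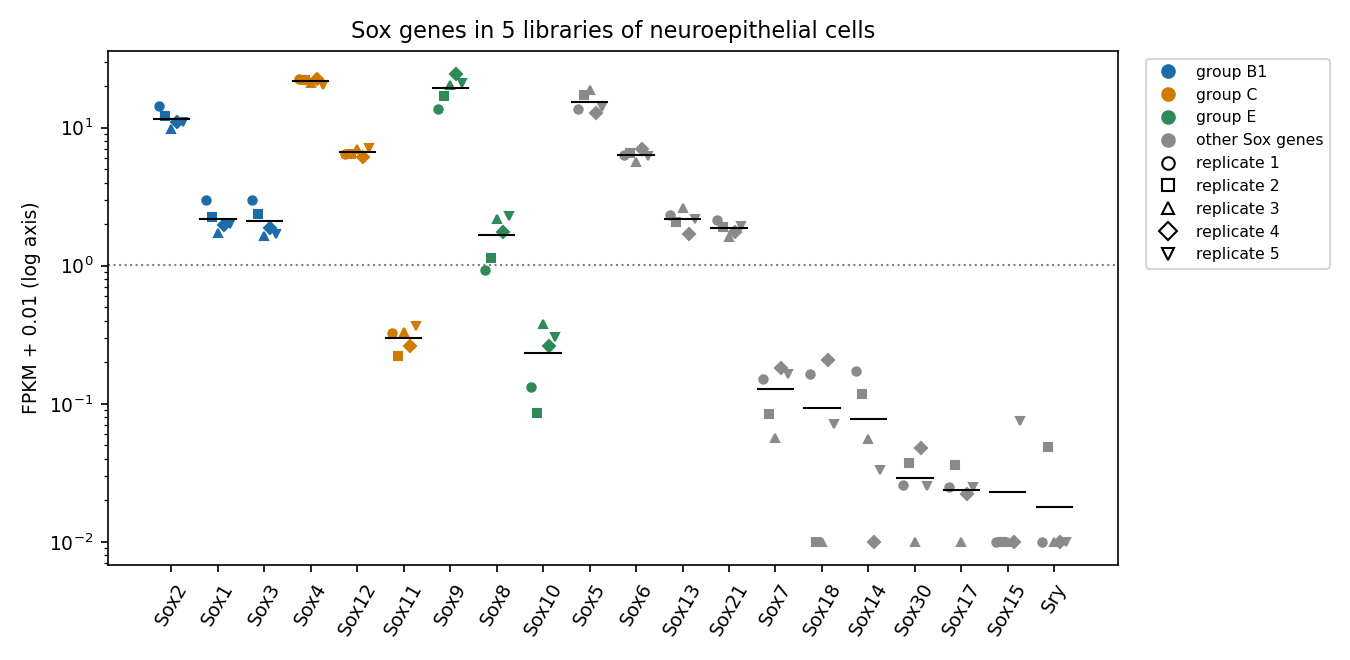
FPKM + 0.01 on a log axis for the 20 measured Sox genes, with 1 symbol per library, a black line at the mean of the 5 libraries and a dotted line at 1 FPKM. The 9 members are coloured by group, and Sox4, Sox9 and Sox2 stand highest among them while Sox11 and Sox10 lie below the dotted line in all 5 libraries.

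In group B1, Sox2, the factor most used as a marker of neural stem cells, had 14.3, 12.1, 9.69, 10.96 and 11.02 FPKM in replicates 1 to 5. Replicate 1 was the highest and replicate 3 the lowest, a 1.47-fold range. The mean of 11.6 ± 1.72 FPKM (SD, n = 5) lay 2.65 above the level on the log2 scale (SE 0.08, limma adjusted p = 1.31e-08).

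Sox1, an early marker of the neural plate, had 2.96, 2.23, 1.71, 1.95 and 1.98 FPKM in replicates 1 to 5, with a mean of 2.17 ± 0.48. Its highest and lowest libraries were those of Sox2. Sox3, the X-linked B1 gene, had 2.99, 2.34, 1.64, 1.86 and 1.67 FPKM, with a mean of 2.10 ± 0.57. Both were above 1 FPKM, by 0.65 for Sox1 (SE 0.10, limma adjusted p = 0.000391) and by 0.61 for Sox3 (SE 0.11, limma adjusted p = 0.000984) on the log2 scale. Against a level of 2 FPKM neither was called, with limma adjusted p = 0.539 for Sox1 and 0.807 for Sox3. At that level 4 of the 9 members were above and 2 below, against 45.8% of all genes tested above and 48.6% below, so the members' share above was near that of all genes. Sox1 minus Sox3 was 0.04 ± 0.08 on the log2 scale, with Sox1 higher in 3 of the 5 (two-sided exact permutation test flipping the sign per library, p = 0.438, adjusted over 36 pairs 0.438), so these neighbours did not differ beyond their spread. Sox2 stood above both of them in 5 of 5 libraries.

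In group C, Sox4 had the highest mean level of the 9 members and the smallest coefficient of variation, although Sox9 stood above it in replicates 4 and 5. It had 22.3, 22.2, 20.9, 22.5 and 20.4 FPKM in replicates 1 to 5, a mean of 21.7 ± 0.93 and a coefficient of variation of 4.30%. Of the 10983 genes averaging 1 FPKM or more, 4.13% had a smaller SD of log2(FPKM + 1). Sox4 is a factor of progenitor survival and neuronal differentiation. A long noncoding RNA gene on the opposite strand, Gm26735, covers 54.6% of the exon bases of Sox4 in GENCODE M21. The labels do not describe a strand-specific kit, so reads of the overlapping RNAs could not be told apart, and the level of Sox4 is uncertain to that extent. The same limit holds for Sox8, where an antisense gene, 2810468N07Rik, covers 10.6% of the exon bases.

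Sox12, the group C gene next in level, had 6.45, 6.41, 7.02, 6.08 and 7.14 FPKM, a mean of 6.62 ± 0.45, with 11.9% of those 10983 genes varying less. Sox11, which acts with Sox4 in neuronal differentiation, was low. It was at 0.314, 0.211, 0.321, 0.253 and 0.358 FPKM in replicates 1 to 5, with a mean of 0.29 ± 0.06, lying 0.63 below the level on the log2 scale (SE 0.04, limma adjusted p = 6.61e-07). The steps between low values gave implied totals of 20.6 to 28.4 M reads per library (1 M = 1000000), at which these levels stand for 44.7 to 67.1 reads of Sox11, so that its low level did not rest on single reads. Sox4 exceeded Sox11 in 5 of 5 libraries. Their boxes are the most alike of group C, with 88.6% identical bases, and no link of box likeness to level was tested.

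Sox11 has the longest transcript of the 9 genes, with 8311 bases in 1 exon, against 2057 to 4832 bases for the other members. Of 564 protein-coding genes tested whose longest transcript had 7500 to 9000 bases, 66.1% were above 1 FPKM, against 52.9% of all 19228 protein-coding genes. For the 793 genes with a GC content of at least 60% the share was 27.4%, and for the 1421 with 1 exon it was 40.8%. Of the members, Sox3 with 66.4% and Sox10 with 61.8% passed that GC content, and the 6 genes of groups B1 and C have 1 exon each. The part of length, GC content or exon number in the members' levels was not tested.

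In group E, Sox9, a factor of neural stem cells, glial fate, neural crest and cartilage, was the highest member. It had 13.6, 16.8, 20.4, 24.4 and 20.9 FPKM in replicates 1 to 5. Replicates 1 and 2 were the lowest and replicate 4 the highest, a 1.79-fold range, with a mean of 19.2 ± 4.12 (log2 difference from the level 3.31, SE 0.11, limma adjusted p = 2.51e-08).

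Sox8, which acts beside Sox9 and Sox10 in glia and crest, had 0.922, 1.13, 2.16, 1.74 and 2.30 FPKM in replicates 1 to 5, again lowest in replicates 1 and 2. Its mean of 1.65 ± 0.61 was called above 1 FPKM (log2 difference 0.37, SE 0.13, limma adjusted p = 0.0288), the weakest call of the 9. The call was lost without replicate 3 (0.30, limma adjusted p = 0.0858), without replicate 4 (0.35, limma adjusted p = 0.0735), without replicate 5 (0.29, limma adjusted p = 0.0918) and with no filter on low genes (limma adjusted p = 0.0541).

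Sox10, the factor of migrating neural crest and of oligodendrocytes, had 0.122, 0.0760, 0.367, 0.252 and 0.293 FPKM in replicates 1 to 5, with a mean of 0.22 ± 0.12. It was below the level by 0.72 on the log2 scale (SE 0.05, limma adjusted p = 4.56e-06). The implied number of reads was 7.2, 5.1, 19.5, 18.5 and 17.4 in replicates 1 to 5. The 4.82-fold range of Sox10 thus rests on few reads in replicates 1 and 2, the libraries where Sox8 and Sox9 were also lowest.

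Ordered by mean level, the members ran Sox4, Sox9, Sox2, Sox12, Sox1, Sox3, Sox8, Sox11 and Sox10. Of the 36 pairs, 30 kept 1 direction across all 5 libraries, and each of these had an adjusted p of 0.075 by the two-sided exact permutation test. Its 32 sign patterns cannot give an unadjusted p below 0.05, so no pair could pass. Among neighbours in the order, Sox2 minus Sox12 (0.72 ± 0.24), Sox12 minus Sox1 (1.28 ± 0.25) and Sox8 minus Sox11 (1.01 ± 0.32 on the log2 scale) kept 1 direction in all 5. The other 5 neighbouring pairs did not. Sox4 exceeded Sox9 in 3 of 5 libraries (0.19 ± 0.33, exact permutation p = 0.375, adjusted 0.409), Sox9 exceeded Sox2 in 4 of 5 (0.67 ± 0.48, exact permutation p = 0.125, adjusted 0.145) and Sox3 exceeded Sox8 in 3 of 5 (0.24 ± 0.59, exact permutation p = 0.438, adjusted 0.438). Sox11 exceeded Sox10 in 4 of 5 (0.08 ± 0.12, exact permutation p = 0.188, adjusted 0.211).

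The groups differed in how they varied between libraries. Summed FPKM of group B1 was 20.2, 16.7, 13.0, 14.8 and 14.7 in replicates 1 to 5, that of group C was 29.1, 28.8, 28.3, 28.8 and 27.9, and that of group E was 14.6, 18.01, 22.9, 26.3 and 23.4. Group C thus varied 1.04-fold, group B1 1.55-fold with its highest value in replicate 1, and group E 1.799-fold with its lowest value there. The sum of group C varied less than any of its genes, with Sox4 at 1.10-fold, Sox12 at 1.17-fold and Sox11 at 1.70-fold. Sox4 and Sox12 lay on opposite sides of their own means of log2(FPKM + 1) in all 5 libraries, so they partly cancelled in the sum. The sum of all 9 stayed between 63.5 and 69.9 FPKM, a coefficient of variation of 4.04%.

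**Figure D3:**
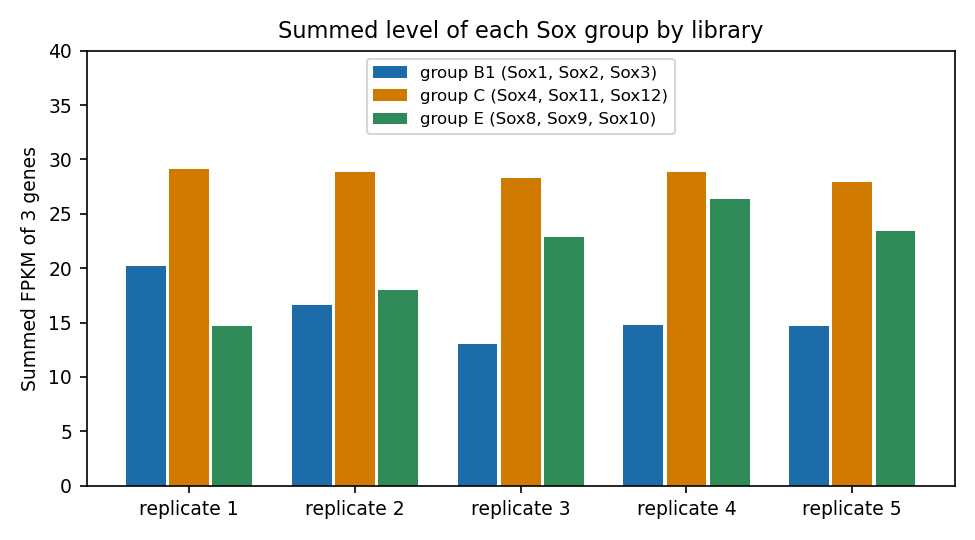
Summed FPKM of the 3 genes of each Sox group in each library, as bars from 0. Group C bars are level at 27.9 to 29.1, whereas group B1 exceeds group E in replicate 1 (20.2 and 14.6) and lies below it in replicates 2 to 5.

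Group B1 minus group E, as the log2 ratio of the sums, was 0.47 in replicate 1, -0.11 in replicate 2, -0.81 in replicate 3, -0.83 in replicate 4 and -0.68 in replicate 5. Which of these groups was the more abundant therefore depended on the library, and the mean of -0.39 ± 0.56 (SD, n = 5) was within its spread. Group B1 minus group C was -0.86 ± 0.22, with B1 lower in 5 of 5 libraries, and group C minus group E was 0.47 ± 0.36, with C higher in 5 of 5. No test was made of these sums. They follow the dominant members: with Sox2, Sox4 and Sox9 left out, B1 minus E was 1.25, because Sox1 and Sox3 together stood above Sox8 and Sox10.

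Within group B1 the 3 genes had nearly the same profile over the libraries. All 3 were highest in replicate 1 and lowest in replicate 3, an order shown by 4.82% of the 10983 genes averaging 1 FPKM or more. These 2 libraries were also extremes in other measures. Replicate 1 had the most genes above 0 (18456) and the lowest FPKM sum (747034). Replicate 3 had the fewest genes above 0 (16275) and the lowest implied total (20.6 M reads). The part of these library differences in the profiles of the Sox groups was not tested. Taken as the difference from each gene's own mean of log2(FPKM + 1), Sox1, Sox2 and Sox3 were at 0.34, 0.29 and 0.38 in replicate 1 and at -0.22, -0.23 and -0.21 in replicate 3. In group E, Sox8 and Sox9 were lowest in replicate 1, as were 35% of those genes. Sox8 and Sox9 were at -0.43 and -0.44 in replicate 1, and Sox8 peaked in replicate 5 at 0.35 and Sox9 in replicate 4 at 0.35. Group C deviations lay between -0.10 and 0.10 in all 5 libraries. For Sox11, with a mean of 0.29 FPKM, the added 1 makes them small, although its FPKM varied 1.70-fold.

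**Figure D4:**
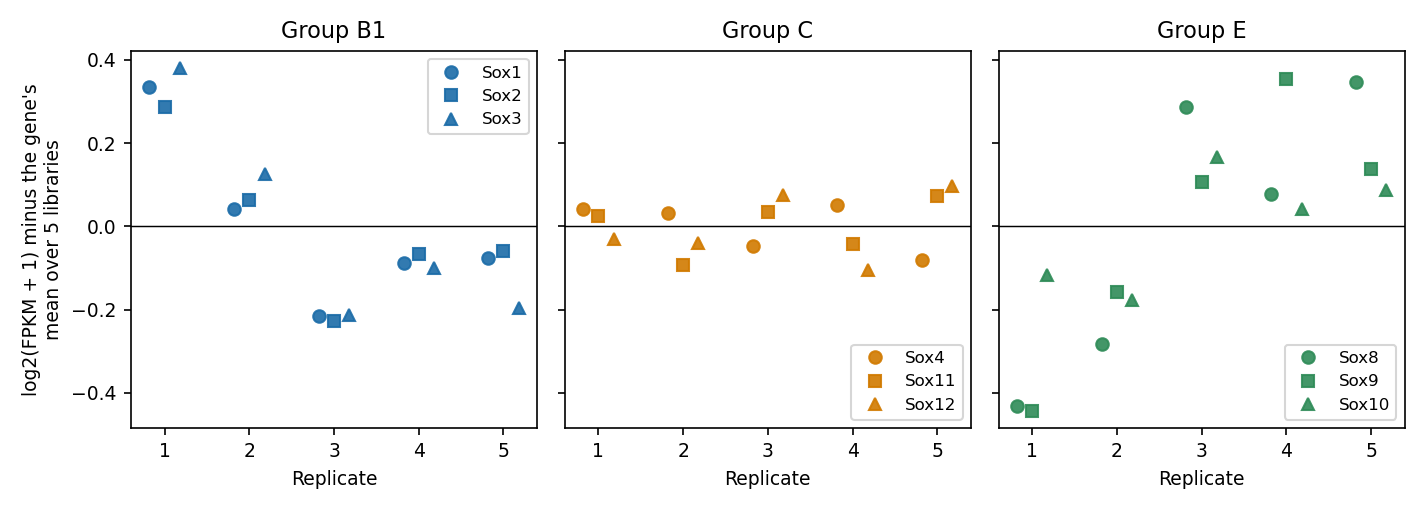
Difference of log2(FPKM + 1) from the gene's own mean over 5 libraries, by replicate, with 1 symbol per gene and 1 panel per Sox group. Group B1 genes sit together, from 0.29 to 0.38 in replicate 1, group C genes stay between -0.10 and 0.10, and group E genes are below 0 in replicates 1 and 2 and above 0 in replicates 3 to 5.

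Some marker lists had the same highest or lowest libraries as a Sox group, and others did not. The counts of every marker list stand beside 52.3% of all genes tested above 1 FPKM and 41.4% below. Neural progenitor markers (10 genes, 9 above 1 FPKM and none below) summed to 313 FPKM in replicate 1 and 260 in replicate 3, their highest and lowest libraries and those of group B1. The genes of the list did not move as one: the intermediate filament gene Vim was highest in replicate 4 (63.1 FPKM) and Nes, the gene of nestin, in replicate 5 (4.24 FPKM). Group B1 as a percent of the summed list was 6.47, 5.39, 5.01, 5.01 and 5.04 in replicates 1 to 5, a coefficient of variation of 11.6%, and group E 4.68, 5.83, 8.80, 8.93 and 8.06, one of 26.2%. Group B1 thus stood highest in replicate 1 relative to this list too. Neuron markers (9 genes, 6 above and 3 below) summed to between 93.2 FPKM in replicate 3 and 131 in replicate 2, where no Sox group had its highest sum. Their sum followed its highest gene, Tubb3, at 48.3 FPKM in replicate 3 and 80.2 in replicate 2. Gap43, the next in mean level, went the other way, with its highest value in replicate 3 (23.4 FPKM) and its lowest in replicate 1 (11.9 FPKM). The sum of group C varied 1.04-fold over the same libraries.

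Neural crest markers without Sox genes (8 genes, 5 above and 2 below) summed to 20.9, 35.0, 56.2, 41.6 and 46.0 FPKM in replicates 1 to 5. Of all genes tested, 52.3% were above and 41.4% below. Tfap2b (13.3 ± 3.82 FPKM), Ets1 (11.3 ± 5.19), Erbb3 (6.05 ± 1.69), Snai1 (4.59 ± 2.10) and Snai2 (3.27 ± 1.13) were the 5 above, each lowest in replicate 1. Tfap2a was called neither way, and Ngfr and Foxd3 were below. Foxd3, an early crest specifier, was listed at 0 in 4 libraries and at 0.0199 FPKM in replicate 5. Markers of mesenchyme, cartilage and meninges (11 genes, 8 above and 2 below) summed to 41.7, 68.5, 138, 114 and 119 FPKM. Both lists were lowest in replicates 1 and 2, as group E was. Their part in the group E levels was not tested, nor was that of any difference in the number of such cells, and fewer cells of a type and less RNA per cell cannot be told apart in bulk RNA. Surface ectoderm markers (8 genes, 7 above and 1 below) summed to 118 to 183 FPKM. They were highest in replicates 2 and 3 and, like group E and the 2 lists before, lowest in replicate 1. The crest, mesenchyme and surface ectoderm lists are of cells other than neuroepithelial cells, and the purity of the libraries was not tested. Oligodendrocyte precursor markers, a further place of Sox10, were at 0.502 to 1.18 FPKM in sum, and all 4 genes were below 1 FPKM, with Olig1 at 0 to 0.0439 FPKM.

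Markers of astrocytes and radial glia (8 genes, 2 above and 4 below) summed to 33.6 FPKM in replicate 1 and 50.5 in replicate 5, mostly from Fabp7 and Slc1a3. Endothelial markers (6 genes, 1 above and 2 below) summed to 5.51 to 12.0 FPKM and were also lowest in replicate 1. Blood and microglia markers summed to 0.0830 to 0.501 FPKM, with Hbb-bt and Aif1 listed at 0 throughout.

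**Figure D5:**
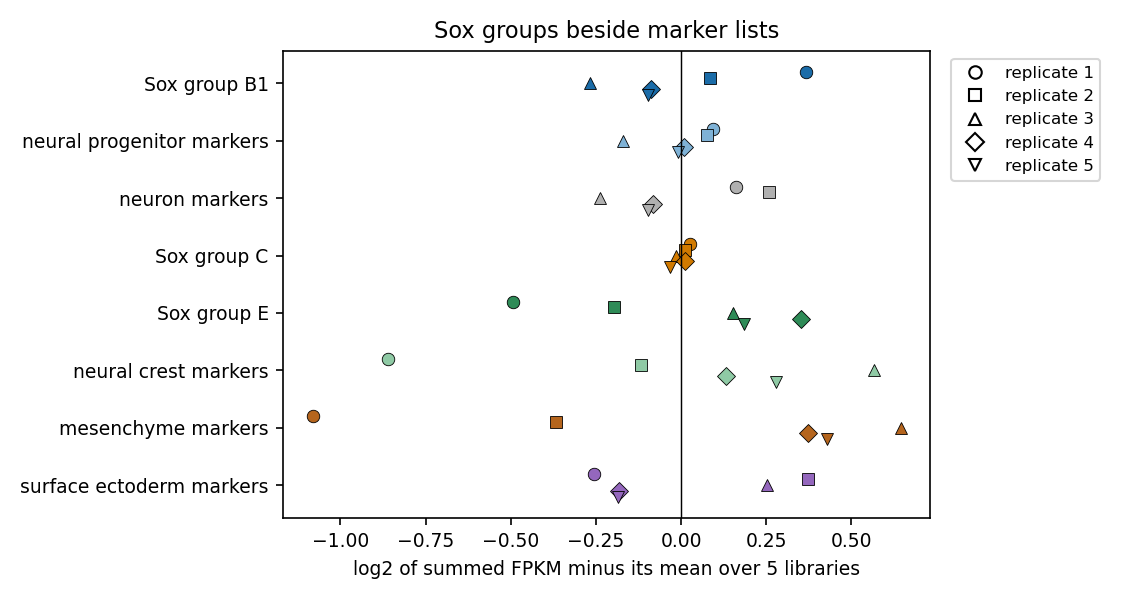
Log2 of the summed FPKM of each Sox group and of 5 marker lists, minus its mean over the 5 libraries, with 1 symbol per library. Replicate 1 lies at the high end for group B1 and at the low end for group E and the neural crest, mesenchyme and surface ectoderm lists, while the 5 symbols of group C nearly coincide.

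The other 11 Sox genes of the table had 4 members above 1 FPKM and 7 below, against 52.3% and 41.4% of all genes tested. The group D genes, which lack a transactivation domain of their own, were all above: Sox5 at 15.3 ± 2.58, Sox6 at 6.31 ± 0.50 and Sox13 at 2.17 ± 0.34 FPKM. Of these, Sox5 and Sox6 act beside Sox9 in cartilage. Sox21, a group B2 repressor that opposes group B1, was at 1.86 ± 0.21 FPKM and, like the B1 genes, highest in replicate 1 (2.15) and lowest in replicate 3 (1.59). Sox14, the other B2 gene, was low, at 0.163, 0.107, 0.0452, 0 and 0.0233 FPKM in replicates 1 to 5. The group F genes of endothelium and endoderm, Sox7 (0.12 ± 0.05), Sox17 and Sox18, were below the level, with Sox17 at 0 to 0.0261 and Sox18 at 0 to 0.199 FPKM. Sox30 was at 0 to 0.0378 FPKM, and Sox15 and Sry were above 0 in 1 library each.

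Partners and described targets were read beside the members. Of 8 partners of group B1 factors, 4 were above 1 FPKM and 1 below, where 52.3% of all genes tested were above and 41.4% below. The share above was near that of all genes for these partners and for the B1 targets that follow. Pax6 (64.6 ± 7.64) and the octamer-binding factor Pou2f1 (39.1 ± 4.43) had the highest levels, and the pluripotency factor Pou5f1, the partner of Sox2 in embryonic stem cells, was lowest at 0.16 ± 0.14. Of 8 genes described as targets of group B1 factors, 4 were above and 3 below, led by the RNA-binding protein Lin28a (45.2 ± 6.04) and the receptor Notch1 (6.19 ± 1.97), with Fgf4 at 0 to 0.0464 FPKM. Of 4 described targets of group C factors, 3 were above and 1 below: the neuronal tubulin Tubb3 (61.6 ± 13.1) and the Hippo pathway factor Tead2 (36.7 ± 2.28) stood highest, and the neuronal microtubule protein Dcx lay at 0.27 ± 0.17.

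Of 11 described targets of group E factors, 4 were above and 6 below, against 52.3% and 41.4% of all genes tested. Erbb3, a neuregulin receptor of crest and glia, was at 6.05 ± 1.69 FPKM and the cartilage collagen gene Col2a1 at 4.77 ± 1.20. Col11a2, another cartilage collagen gene, was lowest, at 0 to 0.0231 FPKM. Of 8 cofactors used by several Sox proteins, 7 were above and 1 below, with the catenin Ctnnb1 (88.1 ± 20.6) and the chromatin remodeller Smarca4 (13.7 ± 1.22) highest and the Groucho corepressor Tle2 (0.26 ± 0.20) lowest. The median log2 difference from 1 FPKM was 0.92 for the B1 partners, 0.43 for the B1 targets, 3.50 for the C targets, -0.25 for the E targets and 2.10 for the cofactors, against 0.45 for all genes tested.

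RefSeq promoters, from 250 bases before to 50 bases after the start (GRCm38.p6, the same assembly as mm10), matched 6 of the 9 members: Sox1, Sox2, Sox4, Sox11, Sox12 and Sox8. Those of Sox1 and Sox2, the B1 genes that moved together, and of Sox4, the steadiest member, are printed 5′ to 3′ on the gene's strand. Capitals mark GC boxes (GGGCGG) and CCAAT boxes (CCAAT) on either strand.
Sox1 (chr8:12395269-12395568, plus strand): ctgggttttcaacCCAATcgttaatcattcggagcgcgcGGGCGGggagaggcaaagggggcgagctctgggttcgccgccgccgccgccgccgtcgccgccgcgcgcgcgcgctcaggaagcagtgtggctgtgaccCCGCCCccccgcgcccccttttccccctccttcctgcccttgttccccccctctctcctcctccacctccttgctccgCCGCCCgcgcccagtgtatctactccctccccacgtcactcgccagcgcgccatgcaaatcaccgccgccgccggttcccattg
Sox2 (chr3:34649745-34650044, plus strand): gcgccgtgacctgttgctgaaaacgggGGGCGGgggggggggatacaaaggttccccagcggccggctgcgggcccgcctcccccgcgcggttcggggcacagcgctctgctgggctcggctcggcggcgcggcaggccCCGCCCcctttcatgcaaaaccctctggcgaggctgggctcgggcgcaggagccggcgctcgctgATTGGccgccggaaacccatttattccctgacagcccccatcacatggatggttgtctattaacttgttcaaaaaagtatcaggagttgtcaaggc
Sox4 (chr13:28953650-28953949, minus strand): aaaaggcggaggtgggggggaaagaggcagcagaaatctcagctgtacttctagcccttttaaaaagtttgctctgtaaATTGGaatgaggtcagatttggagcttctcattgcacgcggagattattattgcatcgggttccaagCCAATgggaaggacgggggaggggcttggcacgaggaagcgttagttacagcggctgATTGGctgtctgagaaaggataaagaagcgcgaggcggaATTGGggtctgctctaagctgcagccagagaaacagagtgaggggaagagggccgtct

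A GC box was found in 35.7% of the 32851 promoters of the table and a CCAAT box in 37.4%. Sox1 had 3 GC boxes and 1 CCAAT box, Sox2 had 2 and 1, and Sox4 had no GC box and 4 CCAAT boxes. None of the marked letters is shared between the motifs. A TATA box (TATAAA), found in 13.6% of promoters, was in none of the 6. Letters of the Sox binding core (ACAAAG or ACAATG, either strand), found in 28.6% of promoters, were present once in Sox2 and in none of the other 5. GC content was 70.7% for Sox1, 66.3% for Sox2 and 52.0% for Sox4, against a median of 52.7%. These matches describe letters in the window and not bound sites.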

How the data were processed

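Total RNA of 5 libraries was made into cDNA with a poly-dT primer and template switching (12 cycles), sheared and amplified again (15 cycles), per the labels' protocols, and read as single ends of 75 bases, on average 35 M (1 M = 1000000) per sample. Molecular identifiers are not mentioned, so copies made by PCR were counted too. The authors deposited FPKM per gene and library. Without giving roles, the submitters' processing notes list mm10, Cuffdiff 2.2.1, TopHat2 2.0.11, cutadapt and CASAVA 1.8; the annotation used is not given in the sources used here, so transcript lengths behind FPKM may differ from GENCODE M21, which matched 21537 of 21801 gene IDs.

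FPKM summed to 747034 to 847625 per library. Values were put on log2(FPKM + 1), which understates differences of low genes. limma 3.58.1 (R 4.3.3) fitted an intercept with a variance trend for the 19706 genes above 0 in at least 1 library and tested it, two-sided, against 1 FPKM, with Benjamini-Hochberg adjustment over all of them; the procedure was tested on simulated data. Genes were also compared in pairs within libraries by flipping the sign of the difference in each library (exact permutation test, two-sided). In all 5 libraries 2095 genes were listed at 0. A 0 may be an absence of reads or a failed estimate, which the values alone do not tell apart. Implied reads came from low values of genes with 1 transcript above 800 bases, after taking 200 bases off its length, and are approximate.

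Members and lists were chosen with earlier results of these data known. Named genes were the 9 members, all other Sox genes, the 2 highest and the lowest gene of each partner, target and cofactor list, and the 3 genes nearest in profile to the highest member of each group; marker genes named with their values were picked once these had been seen, as were the length and GC classes and the motifs. A further member of these lists is not reported here. Alternatives were other pseudocounts, scalings, levels, filters, variance models, group summaries and leaving out each library.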

Additional observations from a re-analysis of the deposited data

Results flagged for a closer look

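Of 26 sets of 5 values (the 20 Sox genes, the 3 group sums and the 3 group differences), 2 had a library far from the others by Dixon's criterion at 95%. Chance gives this in about 1 of 20 sets of independent, normally distributed values, which these sets are not. Sox15 had 0.0656 FPKM in replicate 5, with 0 elsewhere. Sry had 0.0387 FPKM in replicate 2, with 0 elsewhere. Each of these values stands for about 1.0 implied read, so neither difference between libraries was detectable at this depth. With 0 in every other library the criterion flags any value above 0, so both flags were fixed in advance.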

How the results depend on the processing

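The 7 members above and 2 below 1 FPKM held with pseudocounts of 0.5 and 0.1, both scalings, robust variance, no variance trend and a filter at 0.1 FPKM. Against 2 FPKM 4 members were above, with Sox1 (0.07), Sox3 (0.03) and Sox8 (-0.21, its direction reversed) called neither way, a share near the 45.8% of all genes above that level, and with no filter on low genes 6 were above. Leaving out 1 library gave 6 to 7 members above and 2 below. With a mean of at least 0.1 FPKM required, 3495 genes of the table were below the level, because genes near 0 had been removed. Taking the mean of the members' log2(FPKM + 1) in place of the summed FPKM gave -0.30 for B1 minus C and 0.31 for B1 minus E. Only B1 minus E was reversed. In such a mean the low members, Sox11 in group C and Sox8 and Sox10 in group E, weigh as much as the others. Without the highest member of each group B1 minus E was reversed to 1.25 and C minus E was 1.98. Without 1 library B1 minus E ran from -0.61 to -0.28, B1 minus C from -0.95 to -0.80 and C minus E from 0.34 to 0.56, and 30 to 31 pairs kept 1 direction. No pair of members changed the sign of its mean difference under any alternative run. No paired analysis was possible because there is 1 group and so no replicate number shared with a second one; the pairs here are of genes within a library. Depth limits Sox10 in replicates 1 and 2 and the Sox genes at a few hundredths of an FPKM.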

Other observations

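By the root mean square difference over the 5 libraries of log2(FPKM + 1), each gene's own mean taken off, the genes nearest to Sox2 were Ptges3l (0.016), 4930506M07Rik (0.030) and Slx4 (0.031), against a median of 0.235 over the genes averaging 1 FPKM or more. Sox1 was at 0.027 and Sox3 at 0.081, so Sox1 was nearer to Sox2 than 4930506M07Rik and Slx4 were. Nearest to Sox9 were Efna1 (0.028), Tagln2 (0.039) and Cenpl (0.041), against a median of 0.280, with Sox8 at 0.183 and Sox10 at 0.205. Nearest to Sox4 were Exd2 (0.0085), Cisd1 (0.011) and Snrpn (0.016), against a median of 0.153, with Sox11 at 0.105 and Sox12 at 0.128. The distances of Sox11 and Sox12 are small because all 3 genes deviated little, and not because they moved together. Sox12 lay on the opposite side of its mean from Sox4 in all 5 libraries, and Sox11 did in replicates 2 to 5. With 5 libraries of 1 group these likenesses are descriptions.

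The octamer ATGCAAAT, the motif bound by POU factors, was searched on both strands after the promoters had been read. It was present once each in the promoters of Sox1 and Sox12 and in 1.735% of all 32851 promoters.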
